A study of Mus musculus with 6 samples.

Results

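The genes described here are Ccr2, Chil3, Mmp8, Cybb and Csf2rb, 5 genes of monocytes, macrophages and neutrophils, taken by symbol from a deposited table of 149 genes. In the authors' deposited table each gene differed between mice given trimethylamine N-oxide (TMAO) and controls, with a false discovery rate (FDR) up to 0.0487 and a log2 fold change no smaller in size than 1.0. The 5 genes were therefore chosen on the contrast that is described below, and the differences between groups are given as descriptions without a test. Genes outside the 149 were not analysed here. The study used wild-type male C57BL/6 mice, whose age the labels do not give. In the IR group (ischaemia-reperfusion) a main coronary artery, the left anterior descending, was closed for 45 min and reopened for 24 h. The TMAO+IR group had the same surgery and also drank 0.12% TMAO, an oxidised product of the gut bacterial metabolite trimethylamine, for 4 weeks beforehand and through the procedure. Poly(A) RNA of the injured region was sequenced in 3 libraries per group. No sham-operated group or TMAO group without ischaemia was used here, so each value is a level in injured tissue. The labels number the libraries and do not name animals.

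Circulating neutrophils and inflammatory monocytes enter the reperfused heart within hours to days of ischaemia, where they remove dead cells and release proteases and oxidants. Entry of monocytes depends on Ccr2, the receptor for the chemokine Ccl2 and related ligands. Granulocyte-macrophage colony-stimulating factor and interleukin 3 signal in myeloid cells through a shared receptor chain, encoded by Csf2rb, to the kinase Jak2. Cybb encodes the membrane-bound catalytic subunit (gp91phox, NOX2) of the phagocyte NADPH oxidase, which makes superoxide. Mmp8 is a collagenase stored in neutrophil granules. Chil3 (Ym1) is a secreted chitinase-like protein that lacks chitinase activity and is made by macrophages and by neutrophils and their precursors. In bulk tissue, more cells of a type and more RNA per cell cannot be told apart.

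In the GRCm38 annotation (GENCODE M21) all 5 are protein-coding genes. Ccr2 (ENSMUSG00000049103) lies on the plus strand of chromosome 9 at 124101950 to 124113557, and Mmp8 (ENSMUSG00000005800) on the same strand and chromosome at 7558456 to 7568485. Chil3 (ENSMUSG00000040809) is on chromosome 3, minus strand, at 106147554 to 106167564. Cybb (ENSMUSG00000015340) is on the minus strand of the X chromosome at 9435252 to 9487771, and Csf2rb (ENSMUSG00000071713) on the plus strand of chromosome 15 at 78325752 to 78353847. The number of annotated transcripts differs among them. Mmp8 has 1 transcript of 2425 bp, whereas Chil3 has 3 (174 to 1539 bp), Ccr2 has 4 (2265 to 5728 bp), Cybb has 5 (390 to 4752 bp) and Csf2rb has 8 (328 to 4900 bp).

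RefSeq start-site windows of GRCm38.p6, from 250 bases before to 50 bases after the annotated start, were held for 4 of the 5 genes, the exception being Csf2rb. They are shown because the genes were higher together in TMAO+IR and have in common their use in myeloid cells. The RefSeq starts used here need not equal the GENCODE starts given above. For Cybb the whole window (to 9469574) lies inside the GENCODE gene, whose start on the minus strand is at 9487771. Most of the Ccr2 window also lies inside its GENCODE gene. Distances below are from the RefSeq starts. Capitals mark matches, on either strand, to 3 motifs. These are the PU-box core GAGGAA, read by the myeloid factor PU.1 and other ETS proteins, the C/EBP motif TTGCNNAA, and the TATA box TATAAA.
Ccr2, chr9:124101933-124102232, plus strand: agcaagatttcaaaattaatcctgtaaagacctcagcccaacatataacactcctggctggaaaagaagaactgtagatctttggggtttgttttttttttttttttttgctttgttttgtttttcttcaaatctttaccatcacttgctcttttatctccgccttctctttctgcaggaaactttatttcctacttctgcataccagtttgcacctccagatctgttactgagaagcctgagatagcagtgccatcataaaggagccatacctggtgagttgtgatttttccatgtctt
Chil3, chr3:106167515-106167814, minus strand: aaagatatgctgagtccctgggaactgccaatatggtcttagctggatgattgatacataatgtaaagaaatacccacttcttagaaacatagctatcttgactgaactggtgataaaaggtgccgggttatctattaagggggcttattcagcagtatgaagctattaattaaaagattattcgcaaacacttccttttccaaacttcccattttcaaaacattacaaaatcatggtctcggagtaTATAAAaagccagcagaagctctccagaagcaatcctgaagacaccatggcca
Mmp8, chr9:7558179-7558478, plus strand: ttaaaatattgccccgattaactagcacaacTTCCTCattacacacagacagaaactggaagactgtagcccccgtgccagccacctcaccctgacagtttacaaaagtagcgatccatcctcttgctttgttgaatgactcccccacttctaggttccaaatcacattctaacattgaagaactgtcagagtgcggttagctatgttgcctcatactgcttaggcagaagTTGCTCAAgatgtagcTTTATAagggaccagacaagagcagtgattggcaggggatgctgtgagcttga
Cybb, chrX:9469275-9469574, minus strand: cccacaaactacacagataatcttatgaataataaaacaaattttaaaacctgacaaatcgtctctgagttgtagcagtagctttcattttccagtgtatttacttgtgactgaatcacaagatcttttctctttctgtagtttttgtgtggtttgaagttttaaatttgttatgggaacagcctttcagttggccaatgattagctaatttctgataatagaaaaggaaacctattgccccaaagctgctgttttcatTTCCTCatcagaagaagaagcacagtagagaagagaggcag
The PU-box core occurred in 2 of the 4 windows, Mmp8 (219 bases before the start) and Cybb (9 bases after it), and in 28.1% of all 32544 different windows of this length. The C/EBP motif occurred in 1, Mmp8, against 10.8% of all windows, and the TATA box in 2, Chil3 and Mmp8, against 13.6%. Both TATA box matches began only 3 bases before the annotated start, and that of Mmp8 was on the strand opposite to the gene. No matched motif overlapped another in these 4 windows. The Ccr2 window held none of these letters. A match describes the sequence and does not show that a factor was bound.

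Library sizes, worked out from counts and FPKM (fragments scaled by transcript length and library size), lay between 18370997 and 22442237 fragments. Levels are in CPM (counts per 1000000 fragments of the library), where a level of 1 stands for 18.4 to 22.4 fragments. All 5 genes were higher in TMAO+IR, as were 81.9% of the 149 listed genes in the authors' deposited table. The 3 TMAO+IR libraries lay above the 3 IR libraries for all 5 genes both in CPM and in FPKM, which also held for 80.5% and 77.9% of the listed genes, so this says nothing particular about the 5. Summed over the 5 genes, the level was 40.8, 51.2 and 32.7 CPM in IR replicates 1 to 3 and 76.6, 76.9 and 78.6 CPM in the TMAO+IR replicates. The sum was thus nearly equal in the TMAO+IR libraries (77.4 ± 1.04, SD, n = 3) and more spread in IR (41.5 ± 9.25). Csf2rb and Mmp8 supply most of this sum, and each of the 5 genes taken singly was less even within TMAO+IR, from Csf2rb (highest over lowest library 1.11 times) and Cybb (1.13 times) to Chil3 (2.28 times).

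**Figure D1:**
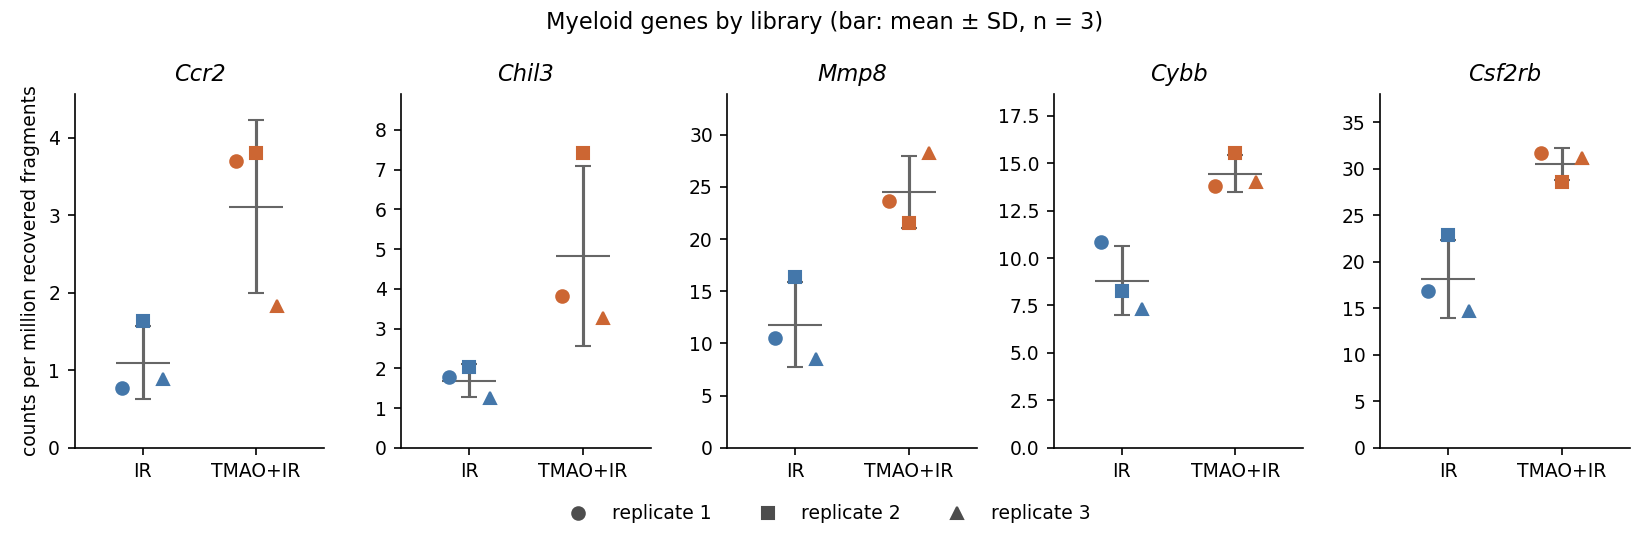
Levels in CPM of the 5 genes in each library, with a linear axis from 0 in each panel, points for libraries, and a bar with whiskers for the group mean ± SD (n = 3). Every TMAO+IR point lies above every IR point, most narrowly in Ccr2 (1.82 against 1.64), and the wide TMAO+IR spread of Chil3 comes from replicate 2 at 7.43.

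Ccr2, the entry receptor of inflammatory monocytes, had the lowest level of the 5 in FPKM and in CPM. Its counts were 16, 36 and 20 in IR replicates 1 to 3 and 68, 82 and 38 in TMAO+IR, which gave 0.77, 1.64 and 0.89 CPM against 3.70, 3.81 and 1.82 CPM. TMAO+IR replicates 1 and 2 were far above IR, but replicate 3 stood only 1.11 times above IR replicate 2. With so few fragments counting error alone is wide, at 26.9 to 52.2 for the 38 counts and 25.2 to 49.8 for the 36 (exact Poisson 95% intervals, which cover counting error only), so the intervals of these 2 libraries overlapped. The fold between groups was 2.81 (edgeR fit, log2 1.49 ± 0.34, SE), and the SE from the spread of the 6 libraries of Ccr2 itself was larger, 0.45. In the authors' deposited table Ccr2 had the highest FDR of the 5, 0.0280, at a log2 fold change of 1.57.

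Chil3, the Ym1 gene, had counts of 37, 45 and 28 in IR and 70, 160 and 68 in TMAO+IR, or 1.79, 2.05 and 1.25 CPM against 3.81, 7.43 and 3.27 CPM. TMAO+IR replicate 2 held more than the sum of the other TMAO+IR libraries. The fold was 2.86 (edgeR fit, log2 1.51 ± 0.33, SE; 0.41 from the libraries of Chil3 itself). Without TMAO+IR replicate 2 the log2 fold change was 1.06, the lowest value that leaving out a library gave. The authors' deposited table gave an FDR of 0.00826.

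Mmp8, the neutrophil collagenase gene, had counts of 217, 360 and 192 in IR and 434, 464 and 589 in TMAO+IR. These are 10.5, 16.4 and 8.56 CPM against 23.6, 21.5 and 28.3 CPM. Here IR replicate 2 was the high library of its group and TMAO+IR replicate 3 that of the other. The fold was 2.07 (edgeR fit, log2 1.05 ± 0.37, SE; 0.30 from its own libraries). Mmp8 stood close to the limit of the deposited list, with the lowest log2 fold change of the 5 genes (1.05) and the lowest FDR (0.00382) in the authors' deposited table. The lowest listed log2 value among the higher genes was 1.0 (Cyp1b1), and genes just outside were not analysed here. Leaving out IR replicate 3 took Mmp8 under the 2-fold limit (log2 0.87), as did leaving out IR replicate 1 (0.97) or TMAO+IR replicate 3 (0.94).

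Cybb, the oxidase subunit gene, had counts of 224, 182 and 164 in IR and 253, 335 and 292 in TMAO+IR. In CPM these were 10.8, 8.28 and 7.31 against 13.8, 15.6 and 14.0. Unlike the other 4 genes, Cybb was highest in IR replicate 1 within its group, and its TMAO+IR libraries differed by at most 1.13 times. The fold from counts was 1.64 (edgeR fit, log2 0.71 ± 0.35, SE; 0.17 from its own libraries), the lowest of the 5. The authors' deposited table gave an FDR of 0.0233.

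Csf2rb, the shared receptor chain gene, had the most counts, 349, 502 and 330 in IR and 583, 615 and 649 in TMAO+IR. These gave 16.9, 22.8 and 14.7 CPM against 31.7, 28.6 and 31.2 CPM. IR replicate 2 was again high within IR, and the TMAO+IR libraries were within 1.11 times of each other. The fold from counts was 1.68 (edgeR fit, log2 0.75 ± 0.38, SE; 0.19 from its own libraries). The authors' deposited table gave an FDR of 0.0148. The SE values of the edgeR fit were alike for all 5 genes (0.33 to 0.38). That fit shares information on spread across the listed genes, so this likeness says nothing particular about the 5. The SE values from the libraries of each gene ran from 0.17 (Cybb) to 0.45 (Ccr2).

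The deposited fold changes are ratios of mean FPKM, and for Cybb and Csf2rb these were larger than the folds from counts. In FPKM, Csf2rb was 3.56, 6.18 and 3.09 in IR and 8.80, 8.84 and 15.4 in TMAO+IR, a 2.58-fold difference, against 1.68-fold from mean CPM. The level of Csf2rb in TMAO+IR replicate 3 was 15.4 FPKM although its 649 counts were close to the 615 of replicate 2. Cybb was 2.28, 2.77 and 1.54 FPKM in IR and 5.06, 4.67 and 4.07 in TMAO+IR, 2.09-fold, against 1.64-fold from mean CPM. The other 3 genes gave nearly the same fold either way. Mmp8 was 2.07-fold from FPKM and 2.07-fold from counts, Chil3 2.85-fold on both scales, and Ccr2 2.97-fold from FPKM and 2.83-fold from mean CPM.

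**Figure D2:**
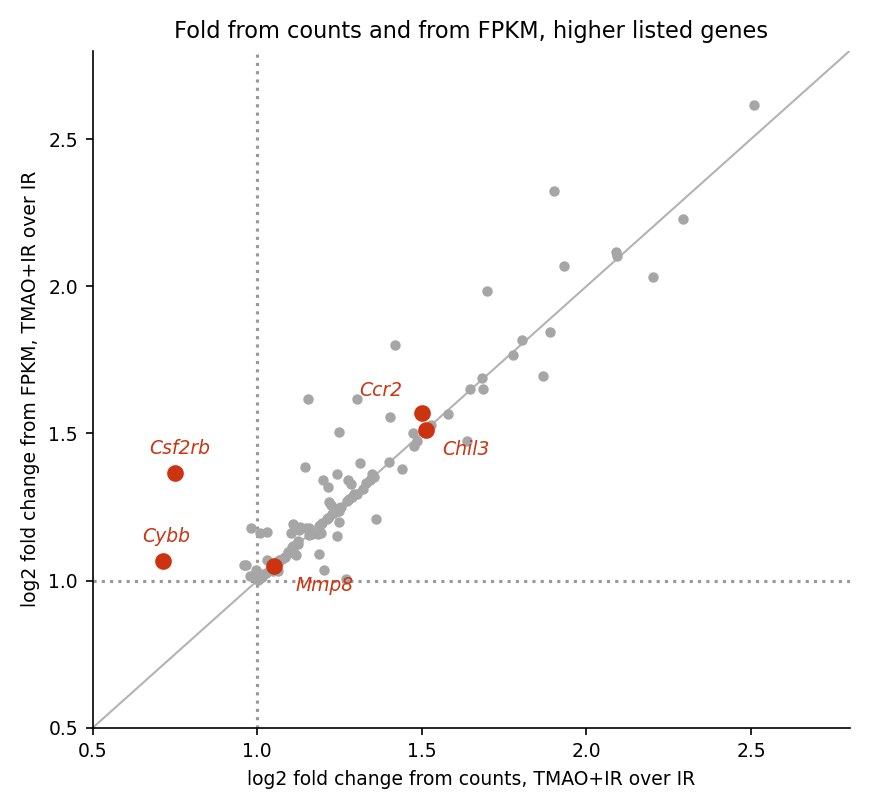
Log2 fold change from FPKM (vertical) against that from mean CPM (horizontal), TMAO+IR over IR, for 119 of the 122 higher listed genes (Cyp1a1 and Eno1b lie beyond the axes and Gm4737 has no fold from counts), with the line of equality and dotted lines at a 2-fold difference. The 5 genes are in red, and Cybb and Csf2rb stand apart to the left of the 2-fold line, at 0.71 and 0.75 from counts against 1.07 and 1.37 from FPKM.

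Among the 98 listed genes with a mean of at least 1 FPKM in both groups, the log2 fold from FPKM minus that from counts had a median absolute value of 0.010, and 73 genes were within 0.05. Csf2rb had the largest excess of the FPKM fold, 0.62, Ikzf4, a lymphoid transcription factor gene, the second (0.38) and Cybb the third (0.35). These 3 exceeded 0.3 and no gene was below -0.3. From counts 3 of the 5 genes were at least 2-fold higher, against 76.5% of the listed genes. Of the 122 higher genes 7 were under 2-fold from counts, and apart from Cybb and Csf2rb these (Sema6d, Pde4b, Far1, Sntb2 and Gla) lay between 1.94-fold and 2.0-fold. Cybb and Csf2rb thus passed the 2-fold limit of the list in FPKM only. In FPKM Cybb also fell under that limit without IR replicate 3 (log2 0.87) or TMAO+IR replicate 1 (0.99), and Csf2rb stood at 1.04 without TMAO+IR replicate 3.

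Dividing the count by FPKM and library size gives the transcript length that the deposited FPKM implies. For Mmp8 this was 2423 to 2428 bp in the 6 libraries, against its single annotated transcript of 2425 bp. Mmp8 is among the 12 single-transcript genes that scaled the library sizes, so this match was partly built in. Chil3 was not used for the library sizes. For Chil3 it was 1538 to 1543 bp, against 1539 bp for Chil3-201, the longest of its transcripts. For Cybb it was 4750 bp in IR replicate 1 and 4745 bp in IR replicate 3, close to the 4752 bp of Cybb-201, the full-length coding transcript. In IR replicate 2 it was 2988 bp, and in TMAO+IR 2722, 3331 and 3445 bp. Csf2rb showed the same division of libraries, with 4740 and 4759 bp in IR replicates 1 and 3, close to the 4764 bp of Csf2rb-201, and 3694 bp in IR replicate 2. In TMAO+IR the implied length of Csf2rb was 3606, 3231 and 2018 bp. For Ccr2 it was 2865, 3274 and 3565 bp in IR and 3365, 2975 and 2807 bp in TMAO+IR, and the groups overlapped. All of these were well below the 5728 bp of Ccr2-203, the longest Ccr2 transcript. In Cybb IR replicate 2 lay among the TMAO+IR libraries, and in Csf2rb just above them. Rounding of FPKM to 2 decimals moves these lengths by little, the widest range being 3495 to 3637 bp for Ccr2 in IR replicate 3.

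**Figure D3:**
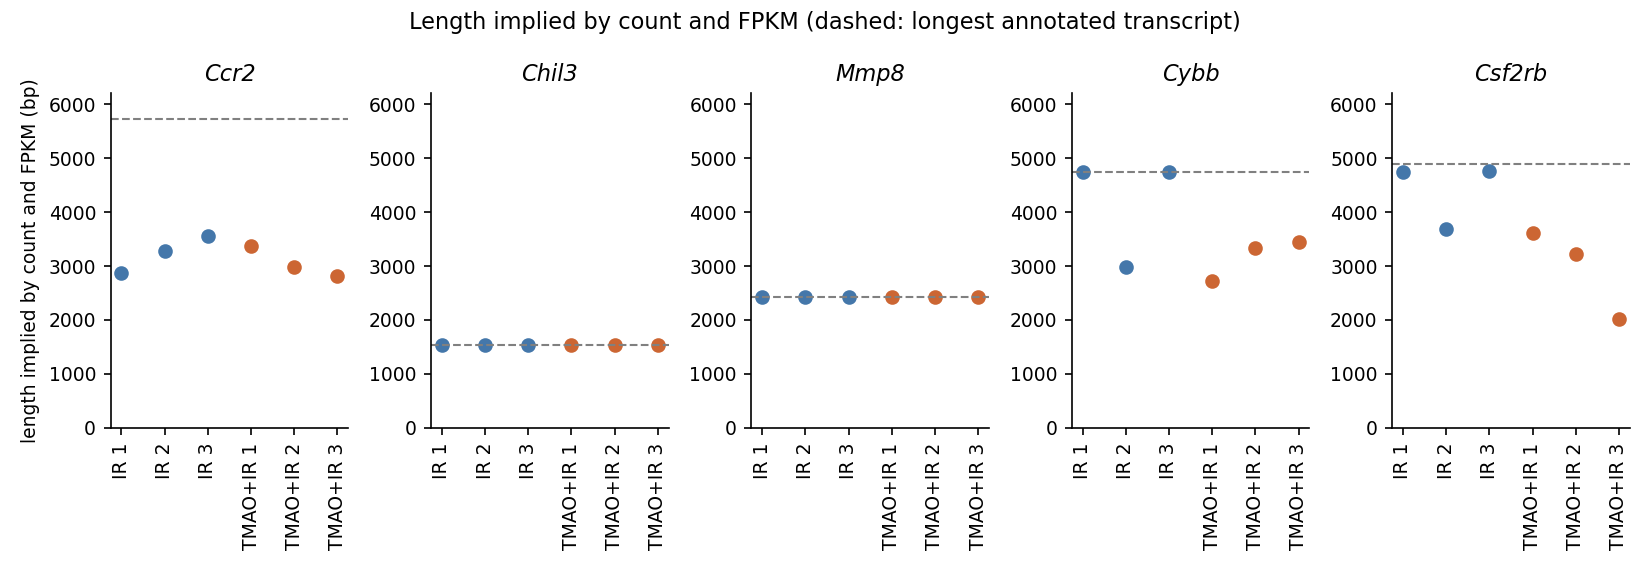
Transcript length in bp implied by count, FPKM and library size in each library (blue IR, orange TMAO+IR), on an axis from 0, with the longest annotated transcript as a dashed line. Chil3 and Mmp8 lie on the line in all 6 libraries, which for Mmp8 is partly built in, since it helped to set the library sizes. Cybb and Csf2rb lie at or near the line in IR replicates 1 and 3 and well below it in the other 4 libraries. Ccr2 lies well below the line in all 6 libraries.

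Over the 6 libraries the longest implied length of Csf2rb was 2.36 times the shortest, and that of Cybb 1.75 times. A ratio above 1.5 was seen in 10 of the 98 genes (10.2%), with a median of 1.07. The annotated transcripts of both genes that are much shorter than full length include retained introns, such as Cybb-202 (928 bp) and Csf2rb-205 (2470 bp). They also include short coding models, such as Cybb-205 (390 bp) and Csf2rb-202 (397 bp), and the coding transcript Csf2rb-204 (2083 bp, 14 exons). The table holds no values by transcript, so which transcripts were present was not tested.

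The scale also sets the order of the genes. In deposited FPKM the IR means were 4.87 ± 1.68 for Mmp8, 4.28 ± 1.67 for Csf2rb, 2.2 ± 0.62 for Cybb, 1.1 ± 0.27 for Chil3 and 0.34 ± 0.14 for Ccr2 (SD, n = 3). Mmp8 and Csf2rb differed by less than their spread. In TMAO+IR Csf2rb came first at 11.03 ± 3.82 FPKM and Mmp8 second at 10.1 ± 1.42, again within their spread, followed by Cybb (4.60 ± 0.50), Chil3 (3.14 ± 1.47) and Ccr2 (1.01 ± 0.32). With CPM divided by the length in kb of the longest annotated transcript, the level of Csf2rb in TMAO+IR was 6.22 ± 0.35 and that of Mmp8 10.1 ± 1.42. On that scale Mmp8 was therefore the highest, and Cybb (3.04 ± 0.20) and Chil3 (3.14 ± 1.47) did not differ beyond their spread.

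Near-identical copies limit how fully reads can be assigned. Of the 50-base windows of the longest Csf2rb transcript, 18.4% occur unchanged in its neighbour Csf2rb2, which encodes the interleukin 3-specific beta chain. For Chil3, 29.4% of windows occur in a transcript of another gene, Chil4 (Ym2) sharing the most with 18.5%. For Mmp8 and Cybb the share was 0. The treatment of such reads was not given in the sources used here, so how far sharing affects the values of Csf2rb and Chil3 is not known. The share of windows is not a measure of that error. Values of Csf2rb2 and Chil4, which the table does not list, were not analysed here. No annotated gene overlaps Ccr2, Chil3, Mmp8 or Cybb, and Csf2rb overlaps only the microRNA gene Mir7676-2.

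Within the groups the 5 genes did not vary as one. For each gene, log2(CPM + 0.1) was centred on its group mean, and genes were compared over the 6 libraries by Pearson's r, which then rests on few degrees of freedom and on libraries that all genes share. Mmp8 and Csf2rb had r = 0.96, with a high IR replicate 2 and a low IR replicate 3 in common. The other 9 of the 10 pairs ran from -0.14 (Ccr2 with Cybb) to 0.62 (Ccr2 with Chil3). The median of the 10 pairs was 0.25, against 0.38 over all 11026 pairs of listed genes. Of all pairs, 7.63% had r above 0.9. IR replicate 3 was below its group mean for all 5 genes. No TMAO+IR library was above its group mean for all 5. The summed counts of all listed genes also differed between libraries of a group. They made up 0.354%, 0.505% and 0.330% of fragments in IR replicates 1 to 3, and 0.944%, 1.08% and 0.678% in TMAO+IR. A high IR replicate 2, a low IR replicate 3 or a low TMAO+IR replicate 3 is therefore not particular to the 5 genes.

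**Figure D4:**
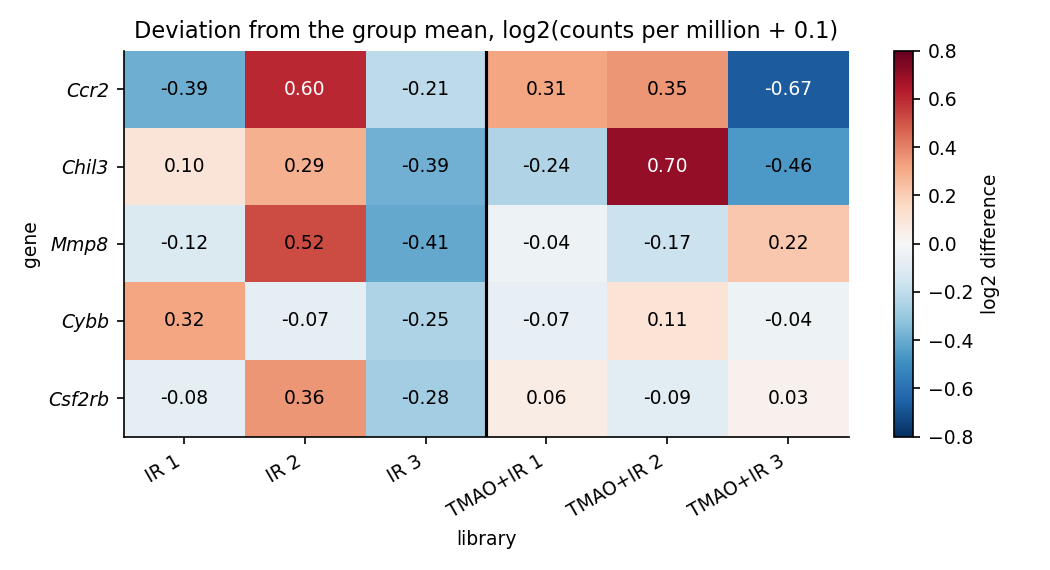
Deviation of each library from the mean of its group in log2(CPM + 0.1), genes in rows and libraries in columns, red above and blue below the mean. IR replicate 2 is high for Ccr2, Chil3, Mmp8 and Csf2rb but not for Cybb (-0.07), and Chil3 in TMAO+IR replicate 2 (0.70) and Ccr2 in TMAO+IR replicate 3 (-0.67) deviate most.

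The 3 listed genes most like each member by this measure were taken as a description. For Ccr2 they were Ikzf4 (r = 0.99), the phosphodiesterase gene Pde4b (0.98) and Rell1 (0.98), and 24 of the 148 other genes had r above 0.9. For Chil3 they were Apold1 (0.93), Peg10 (0.92) and the nuclear receptor gene Nr4a2 (0.92). For Mmp8 they were Ikzf3, a lymphoid transcription factor gene (0.99), Gm14548 (0.96) and Csf2rb (0.96). For Cybb they were Cyp1a1, a cytochrome P450 gene (0.97), Trim30d (0.93) and Hdx (0.92). For Csf2rb they were Mmp8 (0.96), Gm14548 (0.95) and Slc7a11, the cystine transporter gene (0.93). Fewer than 6 genes were above 0.9 for Chil3 (3), Mmp8 (4), Cybb (3) or Csf2rb (5). With few libraries such values are common among listed genes, and nothing about shared function or control is read from them.

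Other genes of the same pathways were mostly outside the deposited table and so not analysed here. Of 13 genes of the beta common receptor list, which holds the receptor chains, their ligands, Jak2 and the Stat5 genes, 2 were listed. These were Csf2rb and the kinase gene Jak2, which was 26.1 to 45.4 CPM in IR and 56.5 to 90.7 CPM in TMAO+IR (2.12-fold from mean CPM, SE 0.32 on the log2 scale, here and below from the 6 libraries of the gene itself). Of 7 phagocyte oxidase genes only Cybb was listed, of 8 chitinase-like genes only Chil3, of 12 metalloproteinase and inhibitor genes only Mmp8, and of 9 Ccr2 ligands and other CC chemokines none. Among 31 monocyte and macrophage markers the listed genes were Ccr2 and Chil3, and among 27 neutrophil markers Mmp8 and Slfn4. Slfn4, a Schlafen gene expressed in myeloid cells, was 3.25 to 4.88 CPM in IR and 11.3 to 12.6 CPM in TMAO+IR (2.78-fold, SE 0.19). Of 14 myeloid growth factors, neutrophil chemoattractants and related cytokines 5 were listed, all higher, where 81.9% of all listed genes were higher. They were the neutrophil chemoattractant gene Cxcl5 (2.18-fold, SE 0.30 on the log2 scale), Ppbp (2.28-fold, SE 0.31), Il6 (2.18-fold, SE 0.13), Lif (2.38-fold, SE 0.52) and Il33 (2.37-fold, SE 0.33). Over the 5 myeloid genes the median log2 fold from counts was 1.05, against 1.16 over the 148 listed genes with a value.

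Markers of other cell types that the tissue could hold were listed in small numbers. None of 14 lymphocyte, 12 dendritic and mast cell or 10 fibroblast and smooth muscle markers were listed. The lymphoid transcription factor genes Ikzf3 and Ikzf4, which are not among these markers, were listed and higher (2.88-fold and 2.67-fold from mean CPM). Of 10 platelet and erythrocyte markers, Ppbp, a platelet chemokine gene, was 2.76 to 4.50 CPM in IR and 5.86 to 9.85 in TMAO+IR, and the erythrocyte anion exchanger gene Slc4a1 was 1.02 to 2.23 CPM in IR and 0.38 to 0.71 in TMAO+IR. Of 9 endothelial markers, the venular gene Ackr1 was 2.56-fold higher (SE 0.15 on the log2 scale). Of 10 cardiomyocyte markers only Myh7 was listed (4.60-fold higher, SE 0.47), so the labelled heart tissue could not be checked against genes such as Tnnt2 or Myh6. Whether a change in cell makeup took part in the higher levels of the 5 genes was not tested.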

How the data were processed

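RNA-seq of 6 libraries was analysed from 1 deposited table, with groups and numbers from the sample titles and the T-IR columns matched to TMAO+IR, the only group other than IR. The submitters' processing notes name GRCm38, edgeR, DESeq2, StringTie 1.3.1, HISAT2, Bowtie2 2.2.8 and fastp 0.18.0, with no role. The authors deposited raw counts, FPKM to 2 decimals, the log2 ratio of mean FPKM, and a p-value and FDR whose tool was not given in the sources used here.

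Library sizes came from count over FPKM (86 genes with 1 FPKM or more throughout), scaled by 12 single-transcript genes. They were the offsets of an edgeR 4.0.16 fit (R 4.3.3, glmQLFit, no filter, checked on simulated data) over all 149 genes. Its p-values are not reported, since the list was selected on this contrast. The second SE uses log2(CPM + 0.1) of the gene itself, and CPM folds are ratios of group means. Genes outside the 5 were named if in 1 of 14 lists (181 genes), among the 3 most like a member, or with 1 of the 3 largest differences between FPKM and count folds. The 7 higher genes under 2-fold from counts were named after their values were seen. So were the leukocyte genes of the closing section and the genes compared there between FPKM and counts. Members and lists were chosen with earlier results of these data known. No pair of libraries had identical counts, and libraries are not tied to animals, so the spread may be technical. Sequence sharing of Ccr2 is not reported here.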

Additional observations from a re-analysis of the deposited data

How the results depend on the processing

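Every fold from counts kept its direction and moved by less than 1 SD between replicates with DESeq2 1.42.0, unscaled counts, library sizes from single-transcript genes, a minimum mean of 50 counts (Ccr2 drops out) and the replicate block. With the replicate block the log2 folds were 1.48 (Ccr2), 1.46 (Chil3), 1.09 (Mmp8), 0.73 (Cybb) and 0.77 (Csf2rb), and it changed no direction. The labels name no pairs, and deviations from the group means correlated at -0.32, 0.34 and -0.08 for replicates 1, 2 and 3 over 117 genes. Libraries with different numbers ranged more widely, from -0.43 (IR replicate 2 with TMAO+IR replicate 3) to 0.45 (IR replicate 1 with TMAO+IR replicate 3). TMM scaling within the table, which recentres a list chosen for its change and moved its median by -1.03, gave 0.43 (Ccr2), 0.45 (Chil3), 0.090 (Mmp8), -0.33 (Cybb) and -0.26 (Csf2rb), so the last 2 reversed. Scaled to the summed counts of the listed genes, 0 of the 5 genes had groups without overlap, against 5 in CPM and 5 in FPKM. These 5 genes made up 0.99% to 1.15% of listed counts in IR and 0.71% to 1.16% in TMAO+IR. With a pseudocount of 1, which understates low genes, the log2 fold from FPKM was 0.58 for Ccr2 and 0.93 for Chil3, and with 0.01 no gene moved beyond 1 SD.

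Leaving out each library in turn gave log2 folds from counts of 1.3 to 1.89 (Ccr2), 1.06 to 1.73 (Chil3), 0.87 to 1.36 (Mmp8), 0.60 to 0.89 (Cybb) and 0.62 to 0.95 (Csf2rb). From FPKM the ranges were 1.36 to 1.96, 1.06 to 1.73, 0.87 to 1.36, 0.87 to 1.27 and 1.04 to 1.73 in the same order. Cybb and Csf2rb stayed under 2-fold from counts in each of these. Depth limits Ccr2 most, with as few as 16 counts in a library.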

Other observations

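Further listed genes of leukocytes, chosen here after their values were seen, were also higher in TMAO+IR with no overlap of libraries, as were 80.5% of all listed genes in CPM, so this is near the share of the list. Lilr4b, a receptor gene of myeloid cells, was 3.14 to 3.97 CPM in IR and 5.57 to 11.2 in TMAO+IR (2.29-fold, SE 0.30 on the log2 scale). Samsn1, an adaptor gene of haematopoietic cells, was 2.29-fold higher (SE 0.28), Rab44, a large Rab GTPase gene of immune cells, 2.28-fold (SE 0.20), and Tlr9, the endosomal DNA sensor gene, 2.15-fold (SE 0.25). Cd80, a ligand gene for T cell costimulation, was 2.30-fold higher (SE 0.38). P2ry10, a leukocyte receptor gene, was 3.22-fold higher (SE 0.23) at 0.32 to 0.53 CPM in IR, where as few as 7 counts were seen.

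Listed genes outside the 98 compared above differed between the scales in both directions. The log2 fold from FPKM minus that from counts was 0.32 for Scai, 0.25 for Herc6, -0.17 for Pmaip1 and -0.26 for Slfn8. It was largest, above that of Csf2rb, for Gm14308 (0.70), which was lower in TMAO+IR (log2 -3.28 from FPKM, -3.98 from counts). These genes, and Olr1 and Aim2 among the same set, were chosen after their values were seen. Olr1, a scavenger receptor gene, was 3.07-fold higher in FPKM and 2.23-fold from counts. The length its values implied was 3544 to 3579 bp in the IR libraries and 1971, 3564 and 2453 bp in TMAO+IR. Aim2, a cytosolic DNA sensor gene, was 5.0-fold higher in FPKM and 3.74-fold from counts, on as few as 2 counts in a library. The shortest implied length of Aim2 (998 bp), Ikzf4 (1512 bp) and Csf2rb (2018 bp) was in TMAO+IR replicate 3, whereas that of Cybb (2722 bp) and Olr1 was in TMAO+IR replicate 1.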
